A study of Mus musculus with 6 samples.

Results

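The respiratory chain and ATP synthase genes described here are nuclear genes, most of them for subunits of complexes I to V. These complexes lie in the inner mitochondrial membrane, and the genes were measured by RNA-seq in mouse long-term hematopoietic stem cells. They were chosen by symbol alone, as the rows whose gene symbol matches Nduf followed by a, b, c, s or v and a digit, Sdha to Sdhd, Uqcr, Cox4 to Cox8 or Atp5. This rule found 79 of the 13935 genes in the deposited table: 35 for complex I, 4 for complex II, 8 for complex III, 15 for complex IV and 17 for complex V. Of these, 78 had enough counts to be tested. The exception was Cox7a1, with counts of 12, 4 and 4 in wild-type and 10, 2 and 0 in knockout libraries. The members lie on 19 chromosomes. A rule by symbol can miss subunits with other names, such as Ndufab1 of complex I, and take in genes that encode no subunit. The table listed 0 mitochondrially encoded genes, so the subunits made inside the organelle were not measured here.

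The study asked whether the polycomb protein Mel18 affects transcription in stem cells that renew the blood. Bone marrow cells came, by their labels, from 3 wild-type mice (replicates 1 to 3) and 3 mice with a conditional Mel18 knockout in the hematopoietic system (replicates 4 to 6). The labels describe the cells as stem and progenitor cells, and the header of the authors' comparison names Cre+ and Cre- LT-HSC, so where Cre+ stands for the knockout, an effect of the Cre recombinase and that of the genotype cannot be told apart. The driver of Cre, the exons removed, the age and sex of the mice, the sort gate and any pooling of mice were not stated in the sources used here. Pcgf2, the gene of Mel18, had counts of 43, 68 and 54 in wild-type and of 72, 72 and 107 in libraries labelled knockout, so this check did not separate the groups. Directions are therefore between libraries by their labels. Libraries held between 26469336 and 37180701 counts. Of the 79 members, 76 had at least 400 counts in every library, so counting error is small for them beside the spread between libraries. Levels are in CPM, a gene's count after scaling for library size, and differences are knockout minus wild type on the log2 scale, with n = 3 in each group.

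As background, complexes I and II pass electrons from NADH and succinate to the carrier coenzyme Q, complex III hands them on to cytochrome c, and complex IV gives them to oxygen. Complexes I, III and IV pump protons as they do so, and complex V, the ATP synthase, makes ATP as the protons flow back. Hematopoietic stem cells at rest are known for leaning on glycolysis, and respiration is known to increase as they enter cycle and differentiate.

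Many genes for these subunits are known to be served by a few shared nuclear factors, among them NRF1, the ETS-family factor GABP and YY1, so the start regions of 5 members are shown with the letters of those motifs. The windows run from 250 bases before to 50 bases after the annotated start, are taken from RefSeq on GRCm38.p6 (the assembly of mm10), and are written 5′ to 3′ on the strand of the gene. Capitals mark CCGGAAG (ETS/GABPA), AAGATGGC (YY1) or the NRF1 motif, 2 GC-rich arms around 1 free base, read on either strand. Uqcrh (chr4:116075021-116075320, minus strand) is shown because it had the smallest p among members with higher levels in the knockout libraries, and its ETS motif begins at position -10 from the start. Ndufs7 (chr10:80249199-80249498, plus strand) is a core subunit whose groups did not overlap, with a YY1 motif at position 24. Sdha (chr13:74350191-74350490, minus strand) had non-overlapping groups in the other direction and carries 3 NRF1 motifs, at positions -98, -55 and -10. Cox6a1 (chr5:115348909-115349208, minus strand) is the general isoform of the subunit whose muscle isoform, Cox6a2, differed most, and holds NRF1 motifs at positions -162 and -117 and an ETS motif at position -16. Atp5j (chr16:84834927-84835226, minus strand), a stalk subunit of the ATP synthase, holds a YY1 motif at position -88 and an ETS motif at position -61, and its exons overlap those of Gabpa, a GABP subunit gene on the other strand. A further annotated start window of Atp5j, upstream at chr16:84835576-84835875, held 0 of these motifs and is not shown.
Uqcrh: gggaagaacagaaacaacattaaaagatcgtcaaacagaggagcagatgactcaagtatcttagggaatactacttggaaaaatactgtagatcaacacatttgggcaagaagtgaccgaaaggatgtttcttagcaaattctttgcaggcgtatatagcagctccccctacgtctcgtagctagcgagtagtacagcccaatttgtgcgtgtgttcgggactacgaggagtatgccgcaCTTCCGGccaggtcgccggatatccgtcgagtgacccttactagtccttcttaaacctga
Ndufs7: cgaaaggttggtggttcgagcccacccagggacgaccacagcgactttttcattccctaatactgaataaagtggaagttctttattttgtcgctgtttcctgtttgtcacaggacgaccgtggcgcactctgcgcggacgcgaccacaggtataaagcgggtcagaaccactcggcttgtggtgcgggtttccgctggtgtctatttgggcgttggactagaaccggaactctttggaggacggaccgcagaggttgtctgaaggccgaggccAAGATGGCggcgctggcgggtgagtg
Sdha: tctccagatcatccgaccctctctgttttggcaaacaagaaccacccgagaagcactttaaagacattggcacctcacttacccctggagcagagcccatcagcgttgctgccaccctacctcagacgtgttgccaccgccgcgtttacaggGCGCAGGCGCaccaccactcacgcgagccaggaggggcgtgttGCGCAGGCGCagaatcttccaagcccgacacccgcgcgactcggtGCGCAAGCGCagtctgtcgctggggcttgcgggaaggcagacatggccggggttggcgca
Cox6a1: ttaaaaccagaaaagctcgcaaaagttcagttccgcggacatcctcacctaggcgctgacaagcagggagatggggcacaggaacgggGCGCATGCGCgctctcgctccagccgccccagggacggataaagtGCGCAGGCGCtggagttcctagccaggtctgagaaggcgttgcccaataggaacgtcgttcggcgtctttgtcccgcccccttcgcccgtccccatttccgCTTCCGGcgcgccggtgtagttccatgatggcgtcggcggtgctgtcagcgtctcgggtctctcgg
Atp5j: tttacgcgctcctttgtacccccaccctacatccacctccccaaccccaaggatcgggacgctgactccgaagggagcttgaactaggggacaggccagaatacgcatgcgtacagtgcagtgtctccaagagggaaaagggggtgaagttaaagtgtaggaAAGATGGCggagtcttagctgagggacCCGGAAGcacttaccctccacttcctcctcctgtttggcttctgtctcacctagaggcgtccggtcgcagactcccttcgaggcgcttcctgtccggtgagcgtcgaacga

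Start regions were found for 66 of the 79 members, 3 of them under a synonym, with 72 windows in all, and a gene was counted if any of its windows held the motif. Of these 66 genes, 16 (24.2%) held CCGGAAG, against 20.4% of 9625 tested genes and 9.93% of all 27025 genes with a window. The NRF1 motif stood in 16 (24.2%), against 11.7% of tested genes and 5.19% of all genes. Its palindromic form, which that motif includes, stood in 5 (7.58%), against 2.41% and 1.07%. AAGATGGC stood in 11 (16.7%), against 5.37% of tested genes and 3.19% of all genes. In all, 37 of 66 genes (56.1%) held at least 1 of these motifs, against 32.9% of tested genes. By complex, a motif was found in 16 of 31 matched genes of complex I, 3 of 3 of complex II, 3 of 5 of complex III, 3 of 11 of complex IV and 12 of 16 of complex V. The median log2 difference was 0.43 over the 37 genes with a motif and 0.38 over the 28 tested genes without one. A match of letters is a description of the window and not a measured binding site.

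The members covered a wide range of levels. Per kilobase of exon, the scale on which genes can be set side by side, the highest was Atp5b, the catalytic beta subunit of the ATP synthase, at 1136 CPM per kb over the 6 libraries. It was followed by Cox4i1, the general form of subunit 4 of complex IV (594 CPM per kb), Atp5a1, the alpha subunit beside Atp5b (555 CPM per kb), Ndufa4 (531 CPM per kb) and Cox6b1 (524 CPM per kb). The order below Atp5b is loose: over the 6 libraries Cox4i1 ran from 293 to 1060.4 CPM per kb and Atp5a1 from 427 to 805, so that their ranges overlap. Among subunits of complex I, Ndufb8, an accessory subunit (407 CPM per kb), and Ndufs7 (300.0 CPM per kb) stood high and Ndufs1, the largest subunit of the NADH-oxidising arm, stood low (52.5 CPM per kb). At the bottom were the isoforms of other tissues, Cox6a2 (7.54 CPM per kb), Cox4i2 (2.99 CPM per kb) and Cox7a1 (0.457 CPM per kb). Just above these stood Atp5s (24.8 CPM per kb) and Atp5sl (22.9 CPM per kb), which carry the Atp5 prefix but encode no subunit of the enzyme. Together the 79 genes took 1.72, 1.69 and 1.16% of the counts of wild-type replicates 1 to 3 and 1.57, 1.601 and 2.35% of those of knockout replicates 4 to 6. The share was lowest in wild-type replicate 3 and highest in knockout replicate 6, and the other 4 libraries lay between 1.57% and 1.72%.

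**Figure D1:**
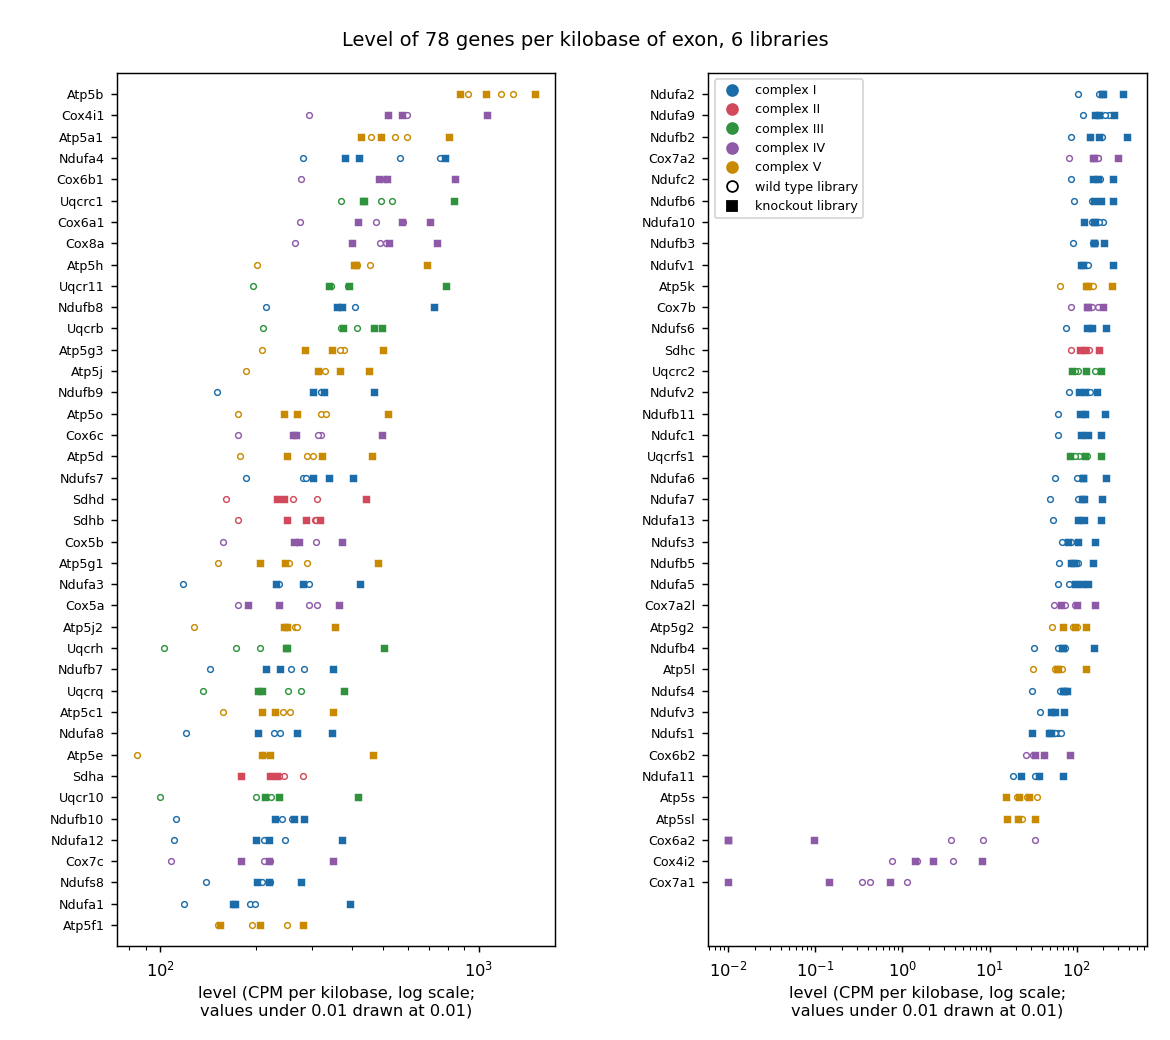
Level of 78 of the 79 members in CPM per kb of exon on log axes, ordered by mean level and coloured by complex, with open circles for wild-type and filled squares for knockout libraries. Atp5b stands at the top, and Cox6a2, Cox4i2 and Cox7a1 have the lowest means (values under 0.01 are drawn at 0.01).

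None of the 78 tested members passed the test between genotypes. The test was the quasi-likelihood test of edgeR, with p adjusted by Benjamini and Hochberg over all 12603 tested genes. By it, 0 of 78 members had an adjusted p below 0.05, beside 18 of all genes (0.143%), of which 0.0159% were higher and 0.127% lower. At an unadjusted p below 0.05 there were 2 members (2.56%), Uqcrh with higher and Cox6a2 with lower levels in the knockout libraries, where 11.9% of all genes were below that level (5.36% higher and 6.51% lower). The fitted differences nevertheless leaned one way: 72 members were fitted higher and 6 lower in the knockout libraries, where 49.6% of all genes were fitted higher. Their median was 0.42 (quartiles 0.25 and 0.53), against -0.01 over all genes. A typical member had a standard error of 0.33, and its difference was smaller than the range of the wild-type libraries alone in 72 of 78 members. The 6 fitted lower were Cox6a2, Ndufs1, Atp5s, Ndufa10, Sdha and Ndufa4, the last of which was at 0.0117 with upper quartile scaling. In bulk RNA, a shift in the share of cells of a type and a shift in RNA per cell cannot be told apart.

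**Figure D2:**
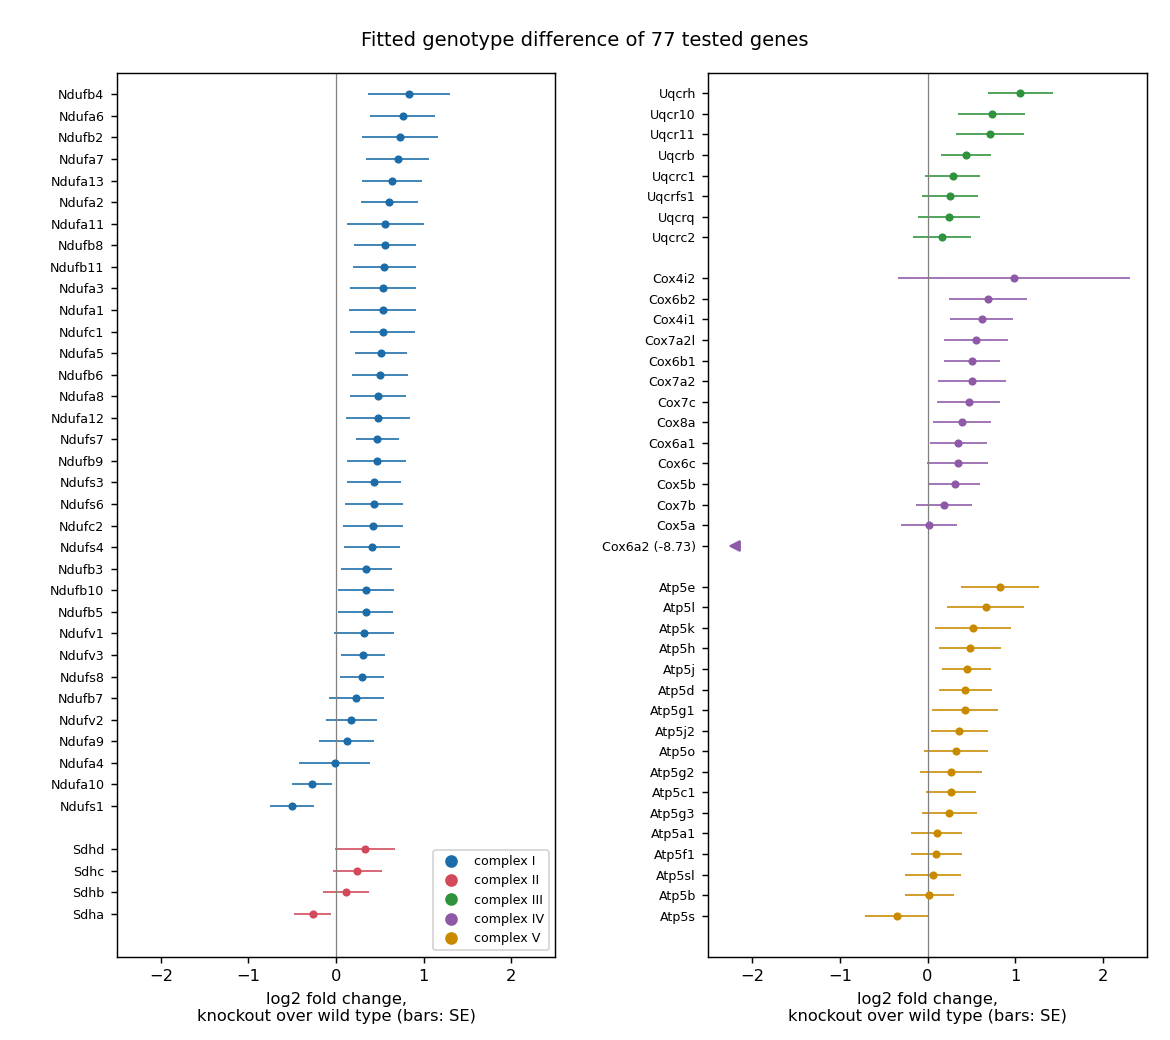
Fitted difference of 77 of the 78 tested members (knockout over wild type, log2, bars of 1 SE), coloured by complex and ordered by size within each. Most points lie right of 0, many by little more than 1 SE, and Cox6a2 at -8.73 is drawn as an arrow at the edge.

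A pair of libraries, 1 in each group, stood out in this pattern. Knockout replicate 6 was the highest of the 6 libraries for 72 of 78 members (92.3%), where it was the highest for 26% of all genes. Wild-type replicate 3 was the lowest for 65 (83.3%), against 20.6% of all genes, and both held for 64. Relative to each gene's mean over the 6 libraries, the median member stood at 0.08, 0.07 and -0.74 (log2) in wild-type replicates 1 to 3 and at 0.01, -0.07 and 0.67 in knockout replicates 4 to 6. Wild-type replicates 1 and 2 and knockout replicates 4 and 5 thus lay close together, with replicate 3 below and replicate 6 above them. Without knockout replicate 6 the median difference was 0.14 with 51 members higher, and without wild-type replicate 3 it was 0.15 with 59 higher. With both left out, a comparison chosen after seeing the data, it was -0.11, with 19 members higher and 59 lower. By the last number in its label, knockout replicate 6 (37) falls outside the run of 6 to 10 that the rest form, with both genotypes alternating in it. Within that run of 5 libraries, the median difference is therefore the 0.14 given above.

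**Figure D3:**
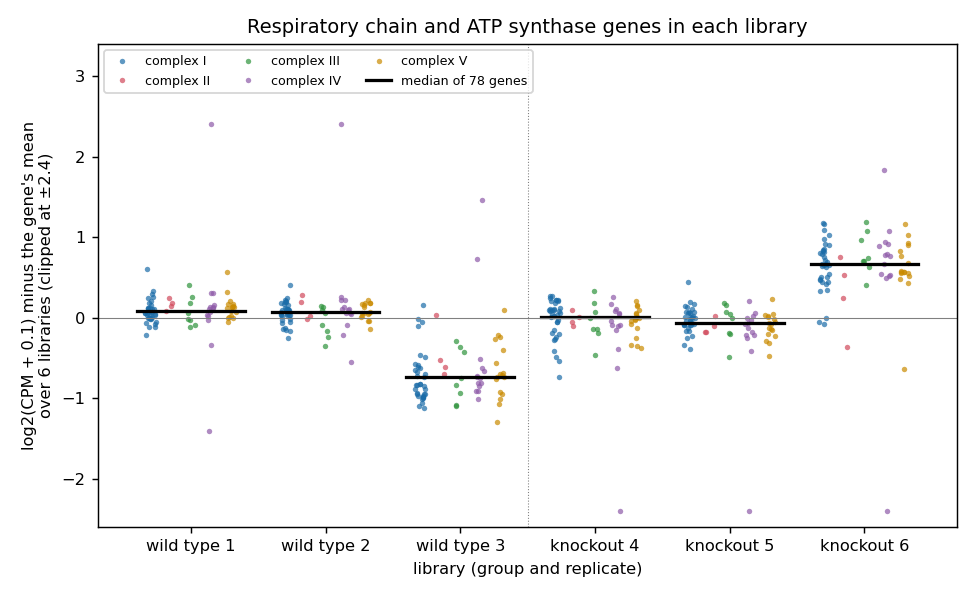
Deviation of each tested member from its mean over the 6 libraries (log2 CPM), 1 column per library, with the median as a bar. The points of wild-type replicate 3 lie mostly below 0 (median -0.74) and those of knockout replicate 6 mostly above it (median 0.67), while the other 4 medians lie between -0.07 and 0.08.

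Member transcripts are short, and these 2 libraries differed from the rest along transcript length. Exons of the members summed to a median of 724 bases, against 2791 over all genes, and 52 of 79 were under 1 kb. Across 12068 genes, the deviation of a gene changed by 0.36 log2 units per doubling of length in wild-type replicate 3 and by -0.39 in knockout replicate 6, and by between -0.08 and 0.06 in the other 4 libraries. Genes outside the set with exons over 500 and up to 1000 bases had a median difference of 0.43 (n = 821), beside 0.44 for the 38 members of that length. Over 1000 and up to 2000 bases the medians were 0.18 (n = 2849) and 0.25 (22 members), and over 2000 and up to 3000 bases 0.00 (n = 2908) and 0.07 (5 members). Up to 500 bases they stood apart, at 0.09 (n = 159) and 0.53 (13 members). With each library's trend on length removed, the members' median was 0.28 where that of all genes was 0.17, a difference of 0.10. The part of transcript length in the values of single members was not tested.

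**Figure D4:**
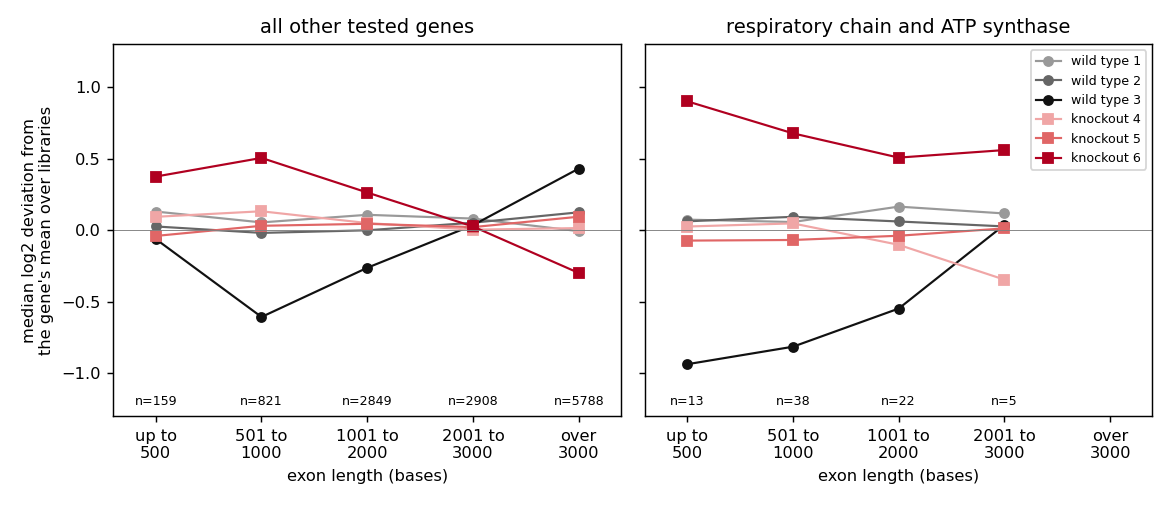
Median deviation (log2) of each library from the mean of each gene, by exon length, for all other tested genes (left) and for the members (right), 1 line per library. From 500 to 1000 bases wild-type replicate 3 is the lowest line and knockout replicate 6 the highest in both panels, at -0.61 and 0.50 for other genes and -0.81 and 0.68 for members.

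The 5 complexes shared the pattern of libraries to unequal degrees. Summed over its 35 genes, complex I stood at 5082, 4973 and 3045 CPM in wild-type replicates 1 to 3 and 4576, 4575 and 7290.5 CPM in knockout replicates 4 to 6. In the same order of libraries, complex II stood at 1589, 1618 and 1175 CPM and 1403, 1364 and 1638 CPM, and complex III at 1984, 1905 and 1279 CPM and 1774, 1768 and 3238 CPM. Complex IV stood at 2322, 2275 and 1233 CPM and 2154, 2011 and 3564 CPM, and complex V at 6790.1, 6358 and 4541 CPM and 5322, 5669 and 9024 CPM. In each complex, wild-type replicate 3 was the lowest library and knockout replicate 6 the highest, and wild-type replicates 1 and 2 lay above knockout replicates 4 and 5, so the groups overlap. Knockout replicate 6 exceeded wild-type replicate 3 by 2.89-fold in complex IV, 2.53-fold in complex III, 2.39-fold in complex I, 1.99-fold in complex V and 1.39-fold in complex II. In the same order of complexes, the median exon length of the tested genes was 638, 524.5, 681, 868 and 1232 bases. The part of length in this order was not tested.

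**Figure D5:**
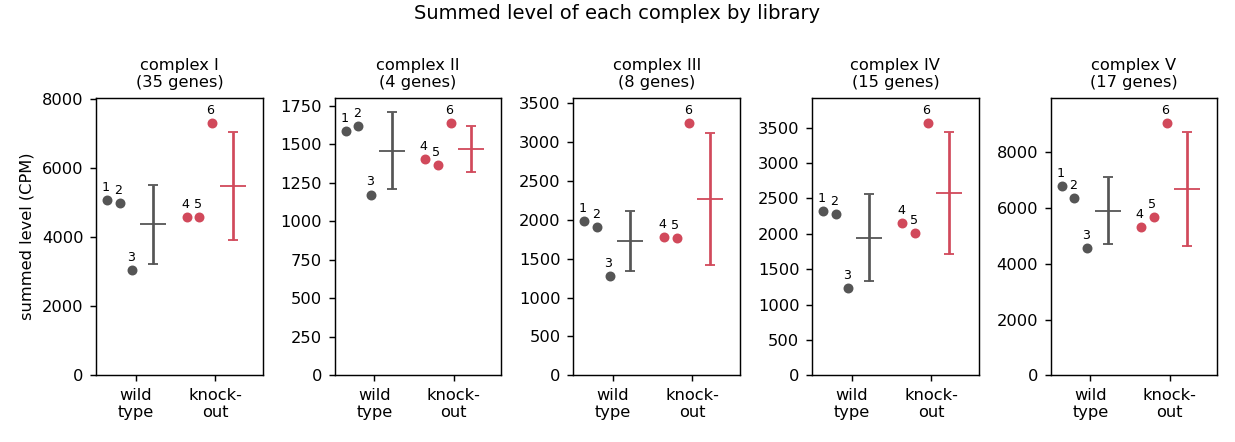
Summed CPM of the genes of each complex, 1 point per library marked with its replicate number, with the mean and SD of each group (n = 3). In every complex wild-type replicate 3 is the lowest point and knockout replicate 6 the highest, and the means lie closer than the spread of the points.

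As shares of the members' summed CPM, which set aside the level of the whole set, 3 of the 5 complexes had groups that did not overlap. By the levels of single genes, 21.4% of all tested genes had groups that did not overlap, in either direction. Complex I took 28.6, 29.0 and 27.0% in the wild-type libraries and 30.1, 29.7 and 29.5% in the knockout libraries, all higher in the latter. Complex III took 11.2, 11.1 and 11.3% and 11.6, 11.5 and 13.1%, again higher in all 3 knockout libraries. Complex V took 38.2, 37.1 and 40.3% and 34.9, 36.8 and 36.5%, lower in all 3. The shares of a library sum to 100%, so a higher share of some complexes entails a lower share of others, and these are not separate observations. Atp5b and Atp5a1, the complex V genes with the most CPM, have 1879 and 2431 bases of exon. The part of transcript length in these shares was not tested. For 3 libraries against 3, an exact two-sided permutation test cannot go below 0.1, so none of these shares can pass 0.05. Complexes II and IV overlapped between the groups, and in knockout replicate 6 complex II took 6.62% against 8.86% to 10.4% in the other libraries.

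Of the complex I genes, 32 of 35 were fitted higher and 0 passed the test, with a median difference of 0.46. The 7 core subunits, among them the carriers of the flavin and the iron-sulfur clusters, had a median of 0.29. The 27 accessory subunits found by the rule, which surround the core, had one of 0.50. The median exon length was 1606 bases in the core genes and 635 in the accessory genes, and the part of length was not tested. Groups did not overlap for 4 genes with higher and 1 with lower levels in the knockout libraries; over all 78 members the counts were 5 (6.41%) and 3 (3.85%), where 10.1% and 11.3% of all genes were apart in these directions.

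Ndufs1 carries several of the iron-sulfur clusters that take electrons away from NADH (mm10 chromosome 1, 63143592 to 63176822, minus strand). It stood at 177, 197 and 167 CPM in wild-type replicates 1 to 3 and 89.1, 150.4 and 141 CPM in knockout replicates 4 to 6. All 3 knockout libraries lay below all 3 wild-type libraries, and replicate 4 was the lowest. The log2 fold change was -0.51 (SE 0.25, adjusted p = 0.477 by edgeR with Benjamini-Hochberg adjustment). Ndufs1 has 2927 bases of exon, the most of all members, and the part of length was not tested. Ndufv1, which binds NADH and the flavin in the same arm, stood at 209.8, 208 and 219 CPM in wild-type replicates 1 to 3 and 189, 180.2 and 426 CPM in knockout replicates 4 to 6. Its first 5 libraries lay within a narrow band in which both knockout libraries were the lowest, and replicate 6 alone was far above it. Ndufs7, which holds the last iron-sulfur cluster before coenzyme Q, stood at 213, 218 and 141 CPM in wild-type replicates 1 to 3 and 257, 229.7 and 305 CPM in knockout replicates 4 to 6. Its groups did not overlap, with wild-type replicate 3 well below the other 5 libraries, and it did not pass the test (log2 fold change 0.47, SE 0.24, adjusted p = 0.490 by edgeR with Benjamini-Hochberg adjustment).

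Among accessory subunits, Ndufa6, which belongs to a family of small proteins with a LYR motif, stood at 62.2, 56.9 and 31.9 CPM in wild-type replicates 1 to 3 and 66.7, 65.7 and 123 CPM in knockout replicates 4 to 6. Ndufa7 stood at 134, 124 and 59.2 CPM in wild-type replicates 1 to 3 and 138, 145 and 233 CPM in knockout replicates 4 to 6. In both genes every knockout library was above every wild-type library, but the nearest libraries of the groups lay closer than the range within either group, with replicates 3 and 6 at the ends. Ndufs4, whose loss in mice causes a disease like the human Leigh syndrome, stood at 107, 99.3 and 46.8 CPM in wild-type replicates 1 to 3 and 110.3, 108 and 119 CPM in knockout replicates 4 to 6. Here replicate 6 lay close to the other knockout libraries, and the gap between the groups was smaller than the spread of the knockout libraries. Differences were 0.76 (SE 0.37), 0.70 (SE 0.36) and 0.41 (SE 0.32), with adjusted p of 0.468, 0.483 and 0.666 by edgeR with Benjamini-Hochberg adjustment. Ndufa4, placed with complex I by its symbol but since assigned to complex IV, stood at 371, 279 and 138 CPM in wild-type replicates 1 to 3 and 207, 187 and 385 CPM in knockout replicates 4 to 6. It was highest in knockout replicate 6 and in wild-type replicate 1, and its difference was -0.02 (SE 0.41).

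Complex II is the succinate dehydrogenase of the citric acid cycle, and all of its subunits are nuclear. Sdha, the flavoprotein that oxidises succinate (mm10 chromosome 13, 74322255 to 74350240, minus strand), stood at 697, 802 and 676 CPM in wild-type replicates 1 to 3 and 634, 665 and 512 CPM in knockout replicates 4 to 6. The knockout libraries all lay below the wild-type libraries, and replicate 6 was here the lowest of the 6, not the highest. The difference was -0.26 (SE 0.21) with adjusted p = 0.677 by edgeR with Benjamini-Hochberg adjustment. Sdhb, the iron-sulfur subunit, stood at 328, 331 and 189 CPM in wild-type replicates 1 to 3 and 307, 268 and 342 CPM in knockout replicates 4 to 6, and its groups overlapped. The membrane anchors Sdhc and Sdhd had differences of 0.24 (SE 0.28) and 0.33 (SE 0.34), with overlapping groups in both genes. Sdhd stood at 399.95, 335 and 208 CPM in wild-type replicates 1 to 3 and 314, 299.8 and 570.3 CPM in knockout replicates 4 to 6, with replicates 3 and 6 at the ends. Sdha has 2859 bases of exon and Sdhd 1285.

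Of the complex III genes, 8 of 8 were fitted higher and 0 passed the test, with a median of 0.36. Uqcrh, the hinge protein that sits beside cytochrome c1 (mm10 chromosome 4, 116066965 to 116075070, minus strand), had the smallest p of the 8 and its ETS motif is shown above. It stood at 113, 94.3 and 56.1 CPM in wild-type replicates 1 to 3 and 136, 136 and 275 CPM in knockout replicates 4 to 6. All 3 knockout libraries were above all 3 wild-type libraries, with replicate 3 the lowest and replicate 6 the highest. The difference was 1.06 (SE 0.37), with an unadjusted p = 0.0212 and an adjusted p = 0.308 by edgeR with Benjamini-Hochberg adjustment. The small accessory subunits Uqcr10 and Uqcr11 had differences of 0.73 (SE 0.38) and 0.71 (SE 0.39), and their groups overlapped. Uqcrfs1, the Rieske iron-sulfur protein, had 0.25 (SE 0.32) and Uqcrc1, a core protein of the matrix side, 0.29 (SE 0.31), while the accessory subunit Uqcrq had 0.24 (SE 0.35). The 3 core genes found by the rule had a median of 0.25 and the 5 accessory genes one of 0.71. Their median exon lengths were 1656 and 499 bases, and the part of length was not tested.

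In complex IV, 13 of 14 tested genes were fitted higher and 0 passed the test, with a median of 0.43. The 10 general isoforms ranged from 0.01 for Cox5a to 0.62 for Cox4i1, and knockout replicate 6 was the highest and wild-type replicate 3 the lowest library in all 10. Cox4i1 stood at 454, 396 and 224 CPM in wild-type replicates 1 to 3 and 397, 440.0 and 810.2 CPM in knockout replicates 4 to 6. Apart from replicates 3 and 6 its libraries lay between 396 and 454 CPM, with the genotypes mixed. Cox7a2l, a factor that joins complexes III and IV into supercomplexes, had a difference of 0.55 (SE 0.37) with overlapping groups.

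The gene that differed most was Cox6a2, the heart and skeletal muscle isoform of subunit 6A (mm10 chromosome 7, 128205435 to 128206366, minus strand), which is also known from plasmacytoid dendritic cells of mice. It had 636, 146 and 75 counts in wild-type replicates 1 to 3 and 0, 0 and 2 counts in knockout replicates 4 to 6, or 21.8, 5.60 and 2.36 against 0, 0 and 0.0629 CPM, where 3 counts correspond to between 0.0782 and 0.115 CPM. The groups did not overlap, and the wild-type libraries differed from each other several-fold. Its fitted log2 fold change of -8.73 depends on the prior count of the fit. Over the groups the level was 535 times as high in the wild-type libraries, with a 95% exact interval of 148 to 4421 that covers counting error only. Its adjusted p was 0.130 by edgeR with Benjamini-Hochberg adjustment, and between 0.0899 and 0.473 when each library was left out in turn. DESeq2 gave an adjusted p of 3.01e-06, edgeR's likelihood ratio test 0.000205 and its exact test 0.000796, and these called 4.23%, 3.43% and 3.18% of all genes, with 2.6%, 2.29% and 2.13% lower. The kit does not mark strand, and 10.6% of the exon bases of Cox6a2 overlap those of Itgad on the other strand, where reads of the 2 genes cannot be told apart. Of 6 tested markers of plasmacytoid dendritic cells, chosen after the values of Cox6a2 were seen, 5 were fitted lower and 0 were called. Their summed level was 382, 385 and 281 CPM in the wild-type libraries and 290.2, 225 and 264 CPM in the knockout libraries, which overlaps between the groups, and their part in the values of Cox6a2 was not tested.

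The proportions of isoform pairs show the same gene apart from the rest. Per kilobase, Cox6a2 made up 3.08 ± 2.97% of Cox6a1 and Cox6a2 together in the wild-type libraries and 0.00451 ± 0.00782% in the knockout libraries (SD, n = 3 each). Cox6b2, the testis isoform of subunit 6B, made up 7.37 ± 1.39% and 7.76 ± 1.33% of its pair. Cox4i2, the lung form of subunit 4, made up 0.561 ± 0.621% and 0.477 ± 0.263%. Cox7a1, the heart and muscle form of subunit 7A, made up 0.431 ± 0.196% and 0.179 ± 0.236%, from the few counts given above. The differences of these last 3 shares were smaller than or close to their SD, and the general isoform supplied over 90% of each pair in every library. Cox4i2 itself stood at 0.549, 1.07 and 2.74 CPM in wild-type replicates 1 to 3 and 1.02, 1.64 and 6.00 CPM in knockout replicates 4 to 6, low throughout and highest in replicates 3 and 6 of their groups.

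In complex V, 16 of 17 genes were fitted higher and 0 passed the test, with a median of 0.32. The gene fitted lower was Atp5s (log2 fold change -0.35), which like Atp5sl encodes no subunit of the enzyme. The catalytic subunits differed little. Atp5b (mm10 chromosome 10, 128083307 to 128090388, plus strand) stood at 2416, 2202 and 1741 CPM in wild-type replicates 1 to 3 and 1646, 1978 and 2829 CPM in knockout replicates 4 to 6, and its difference was 0.02 (SE 0.28). The knockout libraries held both the lowest and the highest value, so the groups overlap fully, and Atp5a1 ran the same way with 0.10 (SE 0.29). Atp5e, the small epsilon subunit of the central stalk, stood at 87.1, 86.9 and 34.99 CPM in wild-type replicates 1 to 3 and 91.4, 86.2 and 193 CPM in knockout replicates 4 to 6. It had the highest fitted difference of the complex, 0.83 (SE 0.44), with overlapping groups and adjusted p = 0.507 by edgeR with Benjamini-Hochberg adjustment. Atp5j, whose start region is shown above, had 0.45 (SE 0.28), and 24.5% of its exon bases overlap those of Gabpa. Atp5l, a subunit of the membrane part, had 0.66 (SE 0.44). However, 9 other annotated genes hold a near-identical copy of at least a stretch of its transcript, so that its counts are uncertain.

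The rotating ring of the ATP synthase is built from 1 protein that 3 genes encode, each with its own import sequence. Per kilobase, Atp5g3 supplied 50.4 ± 1.81% of their transcripts in the wild-type libraries and 48.8 ± 3.18% in the knockout libraries (SD, n = 3 each). Atp5g1 supplied 36.7 ± 1.46% and 38.6 ± 4.15%, and Atp5g2 12.9 ± 0.370% and 12.7 ± 1.16%. The order of the 3 genes was the same in both groups, and the differences of these shares were smaller than the spread between libraries. Atpif1, which encodes the natural inhibitor of the enzyme and lies outside the symbol rule, stood at 275 ± 92.9 against 339 ± 58.6 CPM, with overlapping groups and a difference of 0.30 (SE 0.30).

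Counting could mix some members with other genes. Of 78 members whose transcripts could be searched, 21 had a stretch of at least 150 bases at 95% identity or more in another annotated gene, among them Atp5l with 9 such genes, Atp5h with 4 and Uqcrb with 3. Exons of 19 members overlapped exons on the opposite strand, 13 of them over more than 10% of their bases, led by Cox5a (38.9%), Ndufb6 (34.6%) and Ndufa13 (30.0%). The authors' treatment of reads that map to several genes was not stated in the sources used here.

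The genes that assemble, feed and regulate these complexes were read from lists, and 0 of their tested members passed the test. Assembly factors of complex I were fitted 10 higher and 7 lower of 17 tested, median log2 fold change 0.22. Those of complex II were 4 higher and 0 lower of 4 tested, median log2 fold change 0.55, of complex III 5 higher and 1 lower of 6 tested, median log2 fold change 0.25, of complex IV 17 higher and 7 lower of 24 tested, median log2 fold change 0.41, and of complex V 4 higher and 1 lower of 5 tested, median log2 fold change 0.19. Cox14, which is needed for making the first subunit of complex IV, had the smallest p of its list (84.3 ± 22.6 against 150.1 ± 30.1 CPM, log2 fold change 0.83, SE 0.28, adjusted p = 0.284 by edgeR with Benjamini-Hochberg adjustment).

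Electron carriers, enzymes that reduce coenzyme Q and enzymes that make it were 14 higher and 7 lower of 21 tested, median log2 fold change 0.14. Among them, Sqrdl (now Sqor), the mitochondrial enzyme that oxidises hydrogen sulfide and passes the electrons to coenzyme Q, stood at 18.1, 11.1 and 23.3 CPM in wild-type replicates 1 to 3 and 35.4, 60.6 and 60.6 CPM in knockout replicates 4 to 6. Its groups did not overlap, and its difference was 1.58 (SE 0.40, adjusted p = 0.180 in the same edgeR test). Carriers of ADP, ATP and phosphate and uncoupling proteins were 2 higher and 2 lower of 4 tested, median log2 fold change 0.01.

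The citric acid cycle and pyruvate dehydrogenase genes were 9 higher and 15 lower of 24 tested, median log2 fold change -0.13. Dlat, the acetyltransferase core of pyruvate dehydrogenase, stood at 92.0, 96.4 and 96.97 CPM in wild-type replicates 1 to 3 and 61.7, 49.0 and 62.1 CPM in knockout replicates 4 to 6, with every knockout library below every wild-type library (log2 fold change -0.72, SE 0.23, adjusted p = 0.265 by edgeR with Benjamini-Hochberg adjustment). Pdk2, with the next smallest p of the list, went the other way, with every knockout library above every wild-type library. It stood at 42.2, 50.8 and 44.3 CPM in wild-type replicates 1 to 3 and 90.5, 60.6 and 64.3 CPM in knockout replicates 4 to 6. Its difference was 0.65 (SE 0.27, adjusted p = 0.401 in the same edgeR test). Ogdh, a subunit of the oxoglutarate dehydrogenase of the cycle, averaged 423 ± 48.5 against 314 ± 37.5 CPM (log2 fold change -0.43, SE 0.21, adjusted p = 0.461 in that test). Nuclear regulators of mitochondrial genes were 10 higher and 12 lower of 22 tested, median log2 fold change -0.03. Their median exon length was 3401.5 bases, against 725.5 for the tested members. With the length trend removed, 17 of the 22 were fitted higher, beside 7780 of all 12603 genes. The median of the regulators was then 0.21, against 0.28 for the members and 0.17 for all genes. The citric acid cycle list had a median of -0.04 in that fit. The summed level of the regulators, 1053 to 1104 against 904 to 1095 CPM in wild-type and knockout libraries, varied less between libraries than that of the members. The part of length in this was not tested. No test of a difference between these lists and the members was run.

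Other sets of short, abundant housekeeping genes showed the same pair of libraries. Among 89 tested cytosolic ribosomal protein genes, knockout replicate 6 was the highest library in 85.4% and wild-type replicate 3 the lowest in 84.3%, and the median difference was 0.71. Among 77 mitochondrial ribosomal protein genes the shares were 79.2% and 76.6%, with a median of 0.23. Among 39 proteasome subunit genes they were 61.5% and 71.8%, with a median of 0.16. The pattern of libraries was therefore seen in each of these sets as well as in the members.

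Of 12 stem cell markers, 11 were fitted higher and 1, Procr, was called, with summed levels of 2522 to 3009 against 3406 to 4095 CPM in wild-type and knockout libraries. Of 12 markers of lineage-primed progenitors, 12 were fitted lower and 1, Cd48, was called, with summed levels of 5645 to 13547 against 261 to 923 CPM. Of 12 cell cycle genes, 12 were fitted lower and 0 were called, with 3191 to 4052 against 1335 to 1954 CPM. Tested monocyte and macrophage markers were fitted lower in 6 of 7, with 3 called, and the exception was Lyz2, the lysozyme of myeloid cells. Lyz2 stood at 611, 577 and 328 CPM in wild-type replicates 1 to 3 and 869, 775 and 695 CPM in knockout replicates 4 to 6, and it was the largest value in the sum of that list in each library (774 to 1093 against 779 to 887 CPM). F13a1, one of the called markers, stood at 83.4, 55.0 and 97.1 CPM in wild-type replicates 1 to 3 and 0.183, 0.0261 and 0.346 CPM in knockout replicates 4 to 6. Of the tested B cell markers, 5 of 6 were fitted lower (112 to 283 against 72.7 to 150.4 CPM), and of the T and NK cell markers 3 of 3 (298 to 564 against 140.3 to 266 CPM). Erythroid markers were higher in 4 of 7 (703 to 2361 against 2319 to 2714 CPM) and megakaryocyte markers in 5 of 7 (172 to 1279 against 269 to 1486 CPM), with 0 called. In the stem cell, progenitor and cell cycle lists the summed levels of the groups did not overlap. In the stem cell list, wild-type replicate 1 was the lowest library and knockout replicate 4 the highest. In the progenitor and cell cycle lists all knockout sums were lower, so replicate 3 could not be the lowest library nor replicate 6 the highest. Within its own group, wild-type replicate 3 was the lowest in the cell cycle list but not in the progenitor list. Knockout replicate 6 was the highest of its group in neither list. In the erythroid list the summed level was lowest in wild-type replicate 3 and highest in knockout replicate 6, as in the members' summed levels. Gene by gene the erythroid list shared the members' pattern in part. Its median deviation (log2) was highest in knockout replicate 6, at 1.56. That of wild-type replicate 3 was -0.59, above wild-type replicate 1 (-0.74) and knockout replicate 5 (-1.04). Knockout replicate 6 was the highest library in 2 of the 7 tested erythroid genes and wild-type replicate 3 the lowest in 1, with both in 0. No listed marker in the table was at 0 in all 6 libraries. The part of these cells in the members' values was not tested.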

How the data were processed

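The authors deposited 1 table with raw counts per gene for the 6 libraries, log2 FPKM values, summed exon length, and a comparison of their own with a signed fold, its log2 value, a p-value and an adjusted p-value, per the file headers. The kits were SMART-Seq v4 for cDNA and Nextera XT for libraries, per the labels' protocols. Trimmomatic 0.40, STAR 2.5 and edgeR 3.28.1 were used on mm10, per the submitters' processing notes. The authors' log2 FPKM values were not used. Their fold score, log2 fold changes and p-values, as deposited, are quoted only as theirs.

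The deposited counts were fitted in R 4.3.3 with edgeR 4.0.16: filterByExpr with a minimum of 10 counts (12603 of 13935 genes kept), TMM scaling, and the robust quasi-likelihood test, two-sided, with Benjamini-Hochberg adjustment over all genes kept and a threshold of 0.05. Members were read from that fit. The SE is the log2 fold change divided by the square root of F. CPM uses TMM-scaled library sizes, and deviations use log2 of CPM plus 0.1. The fit was also run on simulated counts with 200 changed genes. These counts held no trend on transcript length, so that run does not cover the trend seen in the data. Transcript copies were searched with BLAST+ 2.17.0 in GENCODE M21, which uses the same build. Total counts ran from 26469336 to 37180701; intervals cover counting error only.

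Members and lists were chosen with earlier results of these data known. The genes named are those with the 3 smallest p and the highest level in each complex, complex II and the catalytic core. Also named are isoform sets, Atpif1 and Pcgf2, and, besides Ogdh, 2 of each pathway list at most. Other members named for non-overlapping groups, rank or copies were chosen after their values were seen. The labels give 1 mouse per library, and p-values measure the spread between these libraries. The values of 1 member are not reported here on their own. Alternatives were DESeq2 1.42.0, limma-voom 3.58.1 (also with sample weights), the likelihood ratio and exact tests of edgeR, other scalings and filters, fits without the length trend or the 20 most abundant genes, and fits without single libraries.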

Additional observations from a re-analysis of the deposited data

How the results depend on the processing

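No paired analysis was possible because the groups share no replicate numbers. Of 78 members, 0 passed under the main test (2 at an unadjusted p below 0.05, and 1 to 4 under the alternatives) and under each alternative except DESeq2, edgeR's likelihood ratio test and its exact test, which each called 1, Cox6a2, lower. Over all genes the count of calls was 18 and became 530 with DESeq2, 432 with the likelihood ratio test, 401 with the exact test, 28 with no filter, 9 with the length trend removed, 4 with limma-voom with sample quality weights and 0 with limma-voom (1775 at an unadjusted p below 0.05). Leaving out 1 library in turn gave 0 to 49 calls, the highest without knockout replicate 6, 4 without knockout replicate 5 and 0 without any of the other 4. With wild-type replicate 3 and knockout replicate 6 both left out it was 0 in edgeR's quasi-likelihood test (1500 at an unadjusted p below 0.05), and the members' median difference was -0.11 in place of 0.42. Under the other alternatives that median stayed positive, between 0.14 without knockout replicate 6 and 0.54 without wild-type replicate 2. Sample quality weights gave 0.23 and upper quartile scaling 0.45. Removal of the length trend gave 0.28, where the median of all genes was 0.17, a difference of 0.10.

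Of the members named in the text, these changed sign (log2 fold changes), and none passed its test under these alternatives. Under limma-voom they were Atp5b -0.00290, Atp5sl -0.0195 and Ndufa4 0.0205. With sample quality weights they were Atp5a1 -0.13, Atp5b -0.16, Atp5sl -0.17, Cox5a -0.23, Ndufv1 -0.0412, Uqcrfs1 -0.0483 and Uqcrq -0.00635. Upper quartile scaling gave Ndufa4 0.0117, removal of the length trend Cox5a -0.17 and Sdhb -0.0229, and removal of the 20 most abundant genes Cox5a -0.00305. With both libraries left out the values were Atp5a1 -0.32, Atp5b -0.35, Atp5g1 -0.27, Atp5g2 -0.21, Atp5g3 -0.24, Atp5h -0.0948, Atp5l -0.0466, Atp5sl -0.22, Cox4i1 -0.0254, Cox5a -0.51, Cox6a1 -0.0885, Cox6b1 -0.0330, Cox7a2 -0.17, Cox7a2l -0.0439, Cox8a -0.12, Ndufb8 -0.0850, Ndufv1 -0.18, Sdhb -0.20, Sdhc -0.17, Sdhd -0.26, Uqcr11 -0.00841, Uqcrc1 -0.24, Uqcrfs1 -0.21 and Uqcrq -0.36. When 1 library was left out in turn, the ranges were Atp5a1 -0.22 to 0.28, Atp5b -0.23 to 0.18, Atp5g1 -0.0392 to 0.63, Atp5g3 -0.00847 to 0.39, Atp5sl -0.26 to 0.26, Cox4i2 -0.13 to 1.79, Cox5a -0.29 to 0.18, Ndufa4 -0.42 to 0.32, Ndufv1 -0.20 to 0.51, Sdhb -0.13 to 0.23, Sdhd -0.0346 to 0.54, Uqcrc1 -0.0976 to 0.45, Uqcrfs1 -0.11 to 0.48 and Uqcrq -0.11 to 0.43. The cause was not tested.

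With 3 libraries a group and a typical SE of 0.33, the spread between libraries, and not depth, sets the precision for most members. For Cox6a2, Cox4i2 and Cox7a1, whose counts are low in some or all libraries, counting error adds to that spread.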

Other observations

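The authors' deposited table gives all 79 members an adjusted p of 1, with 56 higher and 23 lower and a median log2 fold change of 0.0530, against -0.0207 over all of its genes. The authors' deposited table has Cox6a2 at -5.56, the same direction as the counts, and Cox7a1 at 1.29, where the counts sum to 20 in the wild-type libraries and 12 in the knockout libraries. In the authors' deposited table, 74 genes with 0 counts in all 6 libraries have a log2 fold change beyond 1 in size, so its values are set beside the counts here only as the authors' own.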
